A study of Mus musculus with 9 samples.

Results

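Lbx1 and Barx2 are 2 homeobox genes, taken from 53465 genes in a table of read counts for mouse macrophages. They were selected on their counts and levels per library, because reads of both lie almost only in the interstitial libraries, so their values in the 3 groups are given below as a description and carry no test. RNA was sequenced from 9 samples, 3 in each group. Lining macrophages (libraries A, B and C) and interstitial macrophages (D, E and F) of the synovium, the membrane of the joint, were sorted by flow cytometry from the hind paws of Cx3cr1-GFP mice without disease, in which green fluorescent protein (GFP) reports the gene of the fractalkine receptor. All sorted cells carried CD45, CD11b and F4/80, and they were GFP-positive for the lining and GFP-negative for the interstitial group. A culture group, macrophages derived from bone marrow (BMDM, libraries G, H and I), was grown for 5 days from C57BL/6 marrow in conditioned medium that supplied MCSF, the growth factor of macrophages. The age and sex of the mice are not given in the sources used here. They also do not state which mice or cultures each library came from, so p-values measure only how far these samples spread, which may be technical.

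Homeobox genes encode transcription factors that bind DNA through a homeodomain, a short fold with a helix that reads the DNA sequence. Lbx1, the ladybird homeobox gene, is known from the embryo, where it acts in muscle precursors that migrate into the limb and in interneurons of the dorsal spinal cord. Barx2, a BarH-like homeobox gene, is known from muscle progenitors, developing cartilage and epithelia, and its protein binds regulatory elements of neural cell adhesion molecule genes. Neither is among the factors by which macrophages are usually defined.

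Lbx1 (ENSMUSG00000025216) lies on chromosome 19, 45232684 to 45235812, minus strand, and Barx2 (ENSMUSG00000032033) on chromosome 9, 31846044 to 31913462, minus strand, both in GRCm38. The annotated Lbx1 transcript has 2 exons and 2484 bases, and that of Barx2 has 4 exons and 1968 bases. The homeobox, the 180 bases that encode the homeodomain, lies in exon 2 of Lbx1 (45234031 to 45234210). In Barx2 it is spread over exon 2 (31858731 to 31858822, 92 bases), exon 3 (31854113 to 31854197, 85 bases) and the first 3 bases of exon 4 (31847053 to 31847055). The homeoboxes are shown with those of the nearest relatives, Lbx2 (chromosome 6) and Barx1 (chromosome 13), because a reading of 1 member and not of its relative rests on their differing sequence. They were read from the GENCODE M21 transcripts (GRCm38, coding strand, 5′ to 3′), and capitals mark the codons of the tryptophan-led core of the DNA-reading helix.
Lbx1: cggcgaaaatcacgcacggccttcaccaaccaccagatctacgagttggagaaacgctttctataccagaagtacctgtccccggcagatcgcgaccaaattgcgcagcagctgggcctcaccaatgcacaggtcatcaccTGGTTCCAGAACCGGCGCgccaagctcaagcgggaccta
Lbx2: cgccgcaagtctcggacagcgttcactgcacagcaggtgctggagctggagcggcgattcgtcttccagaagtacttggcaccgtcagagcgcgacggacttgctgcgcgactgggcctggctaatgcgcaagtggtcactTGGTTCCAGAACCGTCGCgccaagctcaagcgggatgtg
Barx2: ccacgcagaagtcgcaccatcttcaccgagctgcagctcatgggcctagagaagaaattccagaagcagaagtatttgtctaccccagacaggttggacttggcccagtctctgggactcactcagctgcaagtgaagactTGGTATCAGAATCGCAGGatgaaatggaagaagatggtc
Barx1: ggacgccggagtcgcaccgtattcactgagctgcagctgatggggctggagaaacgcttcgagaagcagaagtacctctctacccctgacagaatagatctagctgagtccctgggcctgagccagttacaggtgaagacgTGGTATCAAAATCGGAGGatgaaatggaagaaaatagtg
The homeoboxes of Lbx1 and Barx2 were identical at 97 of 180 bases (53.9%), with no identical run above 8 bases. Lbx1 and Lbx2 shared 129 bases (71.7%) and Barx2 and Barx1 shared 139 (77.2%), with longest identical runs of 20 and 17. Over the whole transcripts, none of 77 consecutive tiles of 32 bases of Lbx1 and none of 61 of Barx2 occurred in an annotated transcript of any further gene. Both strands were searched, but Lbx1 and Barx2 were not searched against each other. Every run of 63 bases holds a whole tile. A read of 101 bases, the length used here, that lay wholly within either transcript thus had no identical copy in the transcripts searched.

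**Figure D1:**
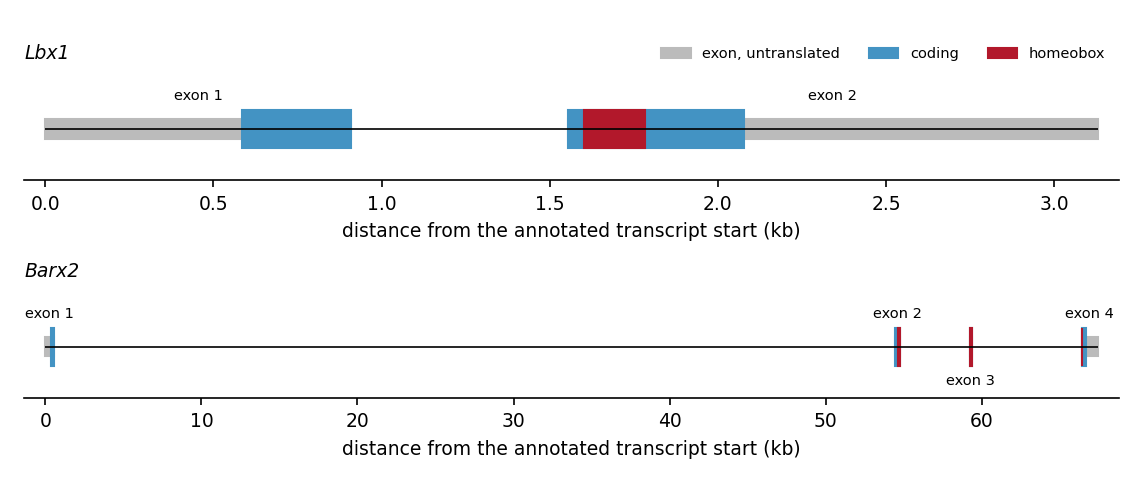
Exon structure of Lbx1 and Barx2, drawn from the annotated transcript start, with distance in kb on the x axis. Grey boxes are untranslated exon, blue boxes coding sequence and red boxes the homeobox, which lies in exon 2 of Lbx1 and is spread over exons 2, 3 and 4 of Barx2.

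Total counts per library ranged from 2194920 to 22499823, and levels are given in CPM, counts scaled to library size with the trimmed mean of M values (TMM). On the second principal component, with 16.0% of the variance, interstitial D lay at -118 and interstitial E and F at -14.1 and 1.10, so D stood apart within its group; values without D are given beside the results that rest on it. Lining C and interstitial F shared high Flt1 (306 and 408 CPM, against at most 14.6 CPM in the other sorted libraries), and whether sorted libraries of both groups came from the same mice is not given, so a shared source was not tested and the comparisons treat all 6 as independent. Each of the 10 macrophage and sort markers had counts in every group, and their sum was 13790 to 23410 CPM in interstitial and 24640 to 31480 CPM in lining libraries. Cx3cr1, whose reporter set the gate, ranged from 663 to 775 CPM in lining libraries, from 2.66 to 7.86 CPM in interstitial libraries and from 236 to 311 CPM in BMDM libraries. This order of the sorted libraries matched their labels.

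Lbx1 was read in all 3 interstitial libraries and in no other. Its counts were 53 in interstitial D, 113 in E and 40 in F, and 0 in each of lining A, B and C and BMDM G, H and I. As levels these were 23.5 CPM in D, 10.3 CPM in E and 8.50 CPM in F, with a mean of 14.1 ± 8.19 CPM (SD, n = 3) and of 9.39 CPM without D. Interstitial D was highest, and no interstitial library overlapped a library of another group. A count of 0 allows up to 3 counts, which is 1.46 CPM in lining A, 0.286 CPM in lining B and 1.13 CPM in lining C, all below the lowest interstitial level. In BMDM the same floor was 0.130 to 0.149 CPM per library.

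Taken over the summed libraries, Lbx1 was at least 58.1-fold higher in interstitial than in lining and at least 248-fold higher than in BMDM, computed against 3 counts over the other group. These are lower bounds set by depth. Without lining B, the deepest lining library, the bound against lining was 18.1-fold, and leaving out any other sorted library gave bounds from 47.96-fold to 67.7-fold (49.4-fold without D). Without BMDM G the bound against BMDM was 160-fold. The intervals and floors here cover counting error only, since reads of a library made by PCR without molecular identifiers are not independent molecules.

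Barx2 was read in all 3 interstitial libraries and at low counts elsewhere. Its counts were 46 in interstitial D, 151 in E and 203 in F, against 0, 9 and 0 in lining A, B and C and 5, 3 and 3 in BMDM G, H and I. The levels were 20.4 CPM in D, 13.7 CPM in E and 43.1 CPM in F, with a mean of 25.7 ± 15.4 CPM (SD, n = 3) and of 28.4 CPM without D. Interstitial F was highest, and the lowest interstitial library lay above every library of the other groups. All lining counts of Barx2 were in lining B, at 0.859 CPM with a 95% counting interval of 0.393 to 1.63 CPM. The counts of 0 in lining A and C allow up to 1.46 and 1.13 CPM, which is above the level in B.

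In BMDM, Barx2 stood at 0.216, 0.149 and 0.138 CPM, which is 3 to 5 reads per library. The lining and BMDM levels of Barx2 could not be ordered beyond their spread, since 2 of 3 lining libraries had 0 counts at floors above every BMDM level. The ratio of summed levels was 37.6 for interstitial over lining (counting interval 19.6 to 82.9) and 132 for interstitial over BMDM (72.7 to 266). Without lining B it was at least 35.1-fold over lining. Without interstitial D the ratios were 38.1 over lining and 133 over BMDM. Without interstitial E the ratio over lining was 60.4 (31.3 to 134), and without interstitial F it was 25.1 (13.0 to 55.8). Over BMDM the ratio was 211 without interstitial E and 87.8 without interstitial F.

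**Figure D2:**
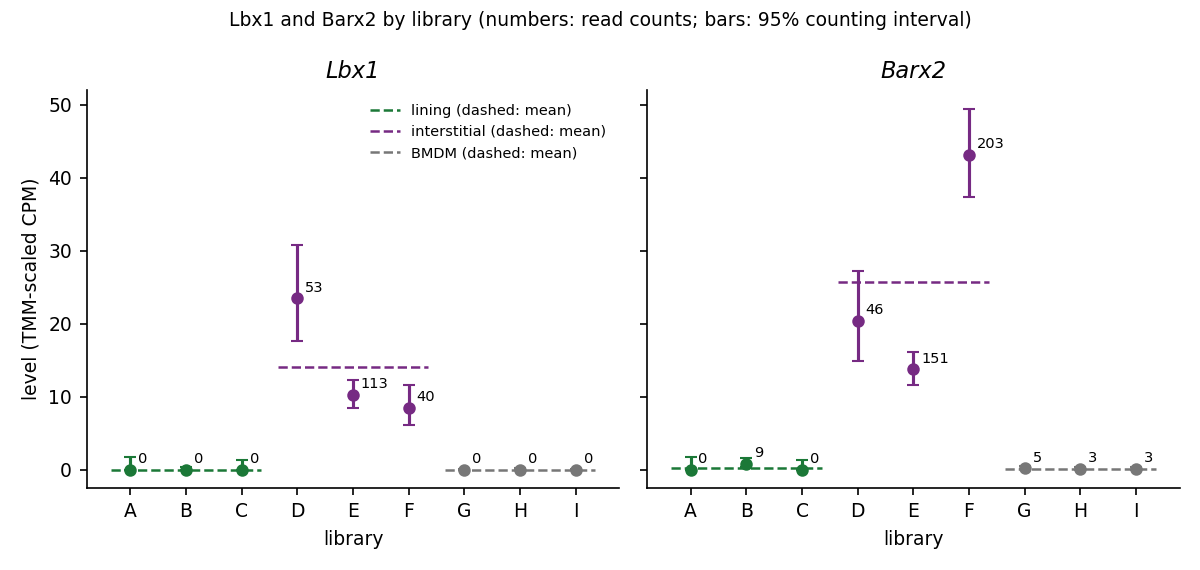
Levels of Lbx1 (left) and Barx2 (right) in the 9 libraries, as TMM-scaled CPM on the y axis. Points are libraries with their read counts beside them, bars are 95% counting intervals and dashed lines are group means. Lbx1 stands between 8.50 and 23.5 CPM and Barx2 between 13.7 and 43.1 CPM in interstitial D, E and F, above all 6 other libraries.

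The 2 genes did not keep the same proportion across the interstitial libraries. Barx2 made up 46.5% of the summed counts of both genes in D (46 of 99, exact Clopper-Pearson 95% interval 36.4% to 56.8%). It made up 57.2% in E (151 of 264, 51.0% to 63.2%) and 83.5% in F (203 of 243, 78.3% to 88.0%). The interval of F lay apart from those of D and E, so the proportion differed between these libraries by more than counting error. These intervals take each read as independent, which reads of a library made by PCR may not be. Per kb of transcript, Lbx1 stood at 9.46, 4.14 and 3.42 CPM in D, E and F and Barx2 at 10.4, 6.98 and 21.9 CPM. Corrected for length, Barx2 was thus 1.10 times Lbx1 in D, 1.69 times in E and 6.41 times in F.

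Both genes varied between interstitial libraries, and a different library was highest for each. The coefficient of variation over D, E and F was 58.1% for Lbx1 and 59.8% for Barx2, against a median of 26.5% for 4405 tested genes with a mean interstitial level of 10 to 50 CPM. This placed them at the percentiles 90.7 and 91.5. Without D the coefficient of Lbx1 was 13.4%, beside a median of 18.0% for the same genes, and without F that of Barx2 was 27.6%, beside 23.0%. D and F were left out as the highest library of the gene, so a fall was likely. The medians leave out the same library for all genes and are not a like comparison. Without E the coefficient of Lbx1 was 66.3%, and without D that of Barx2 was 73.1%. Among all tested genes the level of Lbx1 stood at the percentile 48.5 in D, 31.6 in E and 28.0 in F, and that of Barx2 at 45.3, 36.6 and 61.4. Both were therefore genes of middle or lower abundance in these libraries.

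The pattern of Lbx1 was rare in the table. A minimum of 40 counts in each interstitial library, the lowest Lbx1 value, was met by 7148 genes, and of these 1 gene, Lbx1 itself, had no count in the 6 other libraries. With a minimum of 10 counts, 9568 genes qualified, Lbx1 was again the single gene with no count elsewhere, and 21 genes, Barx2 included, had at most 20 counts elsewhere. Expressed as the interstitial share of the 3 group mean levels, Lbx1 stood at 100% and Barx2 at 98.3%. Of 12610 tested genes, 3 had a share as high as that of Lbx1 (Lbx1, Fam84a and Il4) and 11 as high as that of Barx2. Since both genes were chosen for this pattern, these counts place them in the table and support nothing further.

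Other homeobox genes that were tested were seldom called between the sorted groups. Of 211 further homeobox genes in the table, 106 had any count and 39 passed the filter on low counts and were tested with edgeR's quasi-likelihood test. In interstitial against lining, 0 of these 39 were higher and 1 was lower at a Benjamini-Hochberg adjusted p under 0.05, beside 2.05% of all 12610 genes higher and 3.74% lower. Without adjustment, 0 had p under 0.05 as higher genes and 5 as lower genes, and DESeq2 called 0 higher and 2 lower. The unadjusted counts have no share over all genes beside them and are not read further. The median log2 difference of the 39 was -0.36, beside 0.01 over all genes. A share of 2.56% lower is near the background and is no result about homeobox genes. Among genes below the filter, Hoxd13 had 20 and 4 counts in E and F and 0 elsewhere, and Irx5 had 3 and 8 counts in D and F, 1 in BMDM G and 0 elsewhere. Both were named after their values were seen, and neither was read in all 3 interstitial libraries.

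The gene called lower was Meis3, a cofactor of Hox proteins from the TALE class (ENSMUSG00000041420, chromosome 7, 16175090 to 16186504, plus strand). Its levels were 34.9, 22.1 and 21.4 CPM in lining A, B and C and 4.43, 12.6 and 7.01 CPM in interstitial D, E and F. The groups did not overlap, and the fitted log2 difference was -1.62 ± 0.39 (SE, edgeR adjusted p = 0.0321). The call of Meis3 was lost without any of A, B, D, F, G, H or I (highest adjusted p = 0.124), with values from -2.14 without E to -1.34 without D. Without interstitial E, 4 homeobox genes were called lower (Cux1, Zfhx3, Pou2f2 and Meis3), without interstitial F 1 (Hopx), and without lining B 1 was called higher (Adnp2).

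By the mean over all 9 libraries, the most abundant homeobox genes were Zeb2, Cux1 and Zfhx3. In interstitial libraries alone Hmbox1, at 94.8 CPM, stood above Zfhx3. Zeb2, a zinc finger homeobox factor that acts in tissue macrophages, had mean levels of 570 ± 169 CPM in lining libraries, 693 ± 223 CPM in interstitial libraries and 308 ± 13.7 CPM in BMDM libraries, and its log2 difference between the sorted groups was 0.28 ± 0.24 (edgeR adjusted p = 0.575). Cux1 stood at 272 ± 12.9, 190 ± 32.2 and 354 ± 13.9 CPM, with a difference of -0.52 ± 0.14 that did not pass (adjusted p = 0.0522). Zfhx3 stood at 125 ± 27.6, 75.6 ± 28.4 and 24.9 ± 1.58 CPM, with -0.72 ± 0.25 (adjusted p = 0.124). These 3 genes were thus read in all groups. Per kb of exon, Barx2 ranked 6 and Lbx1 13 of the 41 tested homeobox genes in the interstitial mean, at 13.1 and 5.67 CPM per kb, below Zeb2 at 34.7 and Hopx at 30.4 CPM per kb.

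The nearest relatives did not share the pattern. Lbx2 had 5, 13 and 0 counts in lining A, B and C, 0, 12 and 0 in interstitial D, E and F and 10, 9 and 6 in BMDM G, H and I, and its log2 difference of -1.27 ± 1.34 between the sorted groups did not pass (edgeR adjusted p = 0.665). Barx1 had 0 counts in all 9 libraries. Of the 32 homeobox genes with a count in every interstitial library, Lbx1 was the single gene with none in lining. Prrx1, a limb mesenchyme factor named after its values were seen, followed Lbx1 and Barx2 in interstitial share among tested homeobox genes at 87.2%, with 9, 30 and 5 counts in D, E and F, 0, 12 and 0 in A, B and C and 0 in BMDM. Its difference between the sorted groups did not pass (2.19 ± 1.24, edgeR adjusted p = 0.381). Lbx1 and Barx2 were chosen for their interstitial counts, so their places among the homeobox genes here support nothing further.

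**Figure D3:**
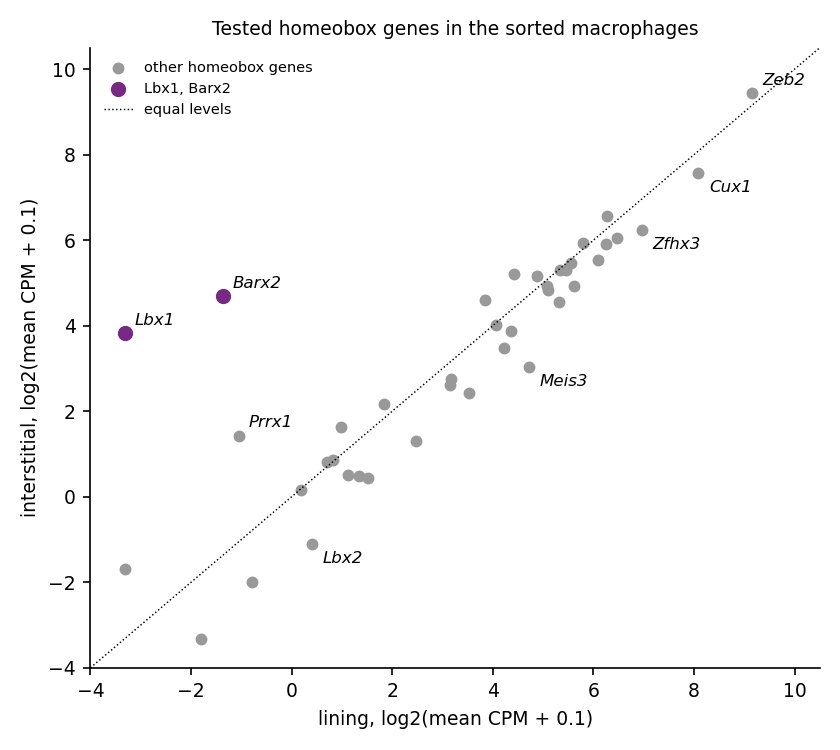
Mean levels of the 41 tested homeobox genes in lining (x axis) and interstitial (y axis) libraries, both as log2(mean CPM + 0.1), each point 1 gene. The dotted line marks equal levels. Lbx1 and Barx2, which were chosen for this, lie far above it at interstitial means of 14.1 and 25.7 CPM, while the other genes lie closer to it.

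Against cultured cells, calls were more frequent among all genes and among homeobox genes. In interstitial against BMDM, 14 of 39 were higher (35.9%) and 5 lower (12.8%), beside 23.4% and 21.3% of all genes, and the median log2 difference was 0.37 against -0.01 over all genes. Whether the list differs from other genes was not tested. Zeb2 (1.17 ± 0.24, edgeR adjusted p = 0.00198) and Zfhx3 (1.61 ± 0.25, 2.67e-04) were higher and Cux1 (-0.89 ± 0.14, 2.78e-04) lower in interstitial. The count of genes lower was 2 without BMDM G, 2 without H and 2 without I. Interstitial libraries serve in each of these comparisons, so their counts are not independent of each other.

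Genes near the 2 loci were mostly read at low counts or not at all. Of 26 annotated genes whose start lies within 250 kb of that of Lbx1 or Barx2, 12 had no count in any library and 7 were tested. In interstitial against lining 0 of the 7 were called by edgeR or by DESeq2, with 3 at an unadjusted p under 0.05, for which no share over all genes is given. With 2.05% of all genes called higher and 3.74% lower, a count of 0 among 7 is near the background. Tlx1, another homeobox gene 85.1 kb from Lbx1, had 0 counts in all 9 libraries. Btrc, a ubiquitin ligase subunit 128 kb from Lbx1, had mean levels of 16.9 ± 6.09 CPM for lining, 22.7 ± 7.74 CPM for interstitial and 13.7 ± 0.344 CPM for BMDM libraries. Gm31497, an antisense RNA gene inside the Barx2 locus, had 0 counts throughout, and the counting used strand.

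Against BMDM, 4 of the 7 neighbours were called, 3 higher and 1 lower, beside 23.4% and 21.3% of all genes. Whether the neighbours differ from other genes was not tested, and 7 genes are too few to tell. Sfxn3, a mitochondrial serine transporter gene, was higher by 1.93 ± 0.17 (189 ± 2.20 against 49.6 ± 3.18 CPM, edgeR adjusted p = 2.83e-06), and Lzts2 by 3.75 ± 0.52 (27.8 ± 2.82 against 2.07 ± 0.53 CPM). Kazald1 was higher by 4.34 ± 1.18 (3.04 ± 1.93 against 0.135 ± 0.0833 CPM). Arhgap32, a GTPase-activating protein gene 203 kb from Barx2, was lower, with 0 counts in D, E and F against 111, 70 and 81 in G, H and I.

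By likeness of log2 CPM over the 9 libraries, the genes nearest to Lbx1 were Fam84a, Il4, Nrxn2, Themis2 and Proser2, with Pearson r from 0.985 to 0.995. Fam84a had 10, 33 and 7 counts in D, E and F and 0 in all other libraries. Il4, the cytokine interleukin 4, had 6, 11 and 7 counts in D, E and F and 0 in all others. These are a few reads per library. Themis2, a signalling adaptor of myeloid and B cells, was likewise highest in interstitial, but at 121 to 137 CPM against 85.1 to 93.8 CPM elsewhere.

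The genes nearest to Barx2 were Irs1, Gm9889, Diras2, Mucl1 and Dok2 (r from 0.974 to 0.995). Diras2, a Ras-like GTPase gene, had 82, 274 and 125 counts in D, E and F against 0, 16 and 0 in A, B and C and 3, 0 and 2 in G, H and I. Irs1, the insulin receptor substrate gene, had 5, 21 and 20 counts in D, E and F and at most 2 in any other library. Dok2, an adaptor downstream of tyrosine kinases, stood at 241 to 290 CPM in interstitial against 99.9 to 130 CPM elsewhere. Lbx1 and Barx2 had r = 0.951 with each other, and each stood below at least 28 genes in the other's order. All 9 points share the split into groups, and the 6 libraries at or near 0 set most of each r, so it says nothing of how genes vary within interstitial. With a prior count of 0.5 in place of 2, 4 of the 5 genes nearest to Lbx1 and 2 of the 5 nearest to Barx2 were the same.

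Genes that act with Lbx1 or Barx2 elsewhere were read too little to test in most cases. Of 18 muscle precursor genes, 13 had any count, 5 were tested and edgeR called 0 in interstitial against lining. Of the muscle determination genes, Pax7 and Myod1 had 8 counts each in interstitial F and 0 in every other library, and Pax3, Myf5, Myog and Myf6 had 0 in all 9. Of 18 spinal cord interneuron genes 9 had any count and none was tested, and Tlx3, Ptf1a and Lmx1b, which act with Lbx1 in that tissue, had 0 throughout. Of 30 limb and positional homeobox genes 21 had any count, 2 were tested and 0 called. Of 20 cartilage genes 3 were tested and 0 called, with Sox9, the master factor of chondrocytes, at 1 count in E and 0 elsewhere. Of 7 neural cell adhesion genes 2 were tested and 0 called. The most abundant of these was L1cam, with 33, 450 and 126 counts in lining A, B and C and 33, 1104 and 452 in interstitial D, E and F (edgeR adjusted p = 0.434). Over all genes, 2.05% were called higher and 3.74% lower. With so few genes tested per list, counts of 0 are near that background and are no result about these genes.

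Markers of other cells were set beside the 2 genes, since fewer cells of a type and less RNA per cell cannot be told apart in bulk samples. Muscle satellite cell markers summed to 3.28 to 8.50 CPM in interstitial, 0.376 to 1.94 CPM in lining and 0.0922 to 0.173 CPM in BMDM, and 5 of their 12 genes had no count in interstitial, Myf5 among them. Dendritic cell markers summed to 144 to 293 CPM in interstitial, 22.8 to 72.1 in lining and 7.35 to 10.3 in BMDM, and lymphocyte markers to 19.9 to 48.2, 3.88 to 11.8 and 0.968 to 1.21 CPM. The interstitial libraries lay above all others for these 3 lists, as they did for Lbx1 and Barx2. No satellite cell gene passed the filter on low counts. Their sum in lining A, 1.94 CPM, was near the 1.46 CPM that 3 counts make there, so that order rests on few reads. Of 7 tested dendritic cell genes, 6 had a higher fitted level in interstitial at an unadjusted p under 0.05 and 1, Cd209a, passed adjustment. The share of all genes at that unadjusted threshold is not given here, so the count of 6 has no background. Mean levels in interstitial and lining were 52.0 and 14.96 CPM for Siglech, 23.3 and 5.81 CPM for Batf3, 19.4 and 6.94 CPM for Zbtb46, 10.7 and 1.08 CPM for Ccr7 and 10.3 and 2.60 CPM for Kmo. Siglech overlapped between the sorted groups, at 14.4 CPM in interstitial F against 15.5 and 18.4 CPM in lining A and C. Batf3 overlapped as well, at 8.92 CPM in interstitial E against 9.39 CPM in lining C. Ccr7 had 0 counts in interstitial D, while Zbtb46, Kmo and Cd209a did not overlap. Flt3, the remaining tested gene, differed little, at 10.2 and 8.05 CPM (log2 difference 0.29 ± 0.80, edgeR adjusted p = 0.888). Of the untested ones, Clec9a had 0 counts in interstitial and Xcr1 at most 0.910 CPM, and of the lymphocyte genes Cd3e, Cd3g, Cd8a and Ncr1 had 0 in interstitial. The most abundant gene of each list was Itga7 for satellite cells (0.819 to 3.19 CPM in interstitial), Cd209a for dendritic cells (32.5 to 115 CPM) and Cd2 for lymphocytes (9.31 to 37.8 CPM). Their part in the levels of Lbx1 and Barx2 was not tested.

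Within interstitial, the dendritic cell sum was highest in D (293 CPM), where Lbx1 was highest. Most of that sum was Cd209a (115 CPM) and Siglech (106 CPM). Of the tested dendritic cell genes, Cd209a, Siglech and Kmo were highest in D, and Batf3, Zbtb46, Flt3 and Ccr7 were highest in F. The Schwann cell and neuron sum (1231 CPM) and the macrophage sum (23410 CPM) were also highest in D. In F, where Barx2 was highest, so were the sums of lymphocyte (48.2 CPM), satellite cell (8.50 CPM), endothelial (665 CPM), pericyte and smooth muscle (267 CPM), skeletal muscle (40.8 CPM), keratinocyte (8.92 CPM) and mast cell markers (54.6 CPM). The mast cell and skeletal muscle sums in E were close to those in F, at 54.2 and 39.0 CPM. Of the endothelial sum in F, 408 CPM were Flt1, which was also high in lining C. With 3 libraries no order could be tested. Skeletal muscle markers summed to 22.2 to 40.8 CPM in interstitial and 24.7 to 28.1 in lining, fibroblast markers to 212 to 748 and 287 to 426, endothelial markers to 207 to 665 and 170 to 437, keratinocyte markers to 4.88 to 8.92 and 3.75 to 8.73 and mast cell markers to 15.5 to 54.6 and 5.82 to 22.7 CPM, so those 5 lists overlapped between the sorted groups. Schwann cell and neuron markers overlapped as well (840 to 1231 and 763 to 1141 CPM), and neutrophil markers were at 55.4 to 201 against 2.42 to 43.2 CPM. The sum of pericyte and smooth muscle markers was lower in every interstitial library (87.3 to 267 against 697 to 1006 CPM). The median log2 difference of its 6 tested genes was 0.71, so the lower sum does not describe the typical member.

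Of the 96 tested members of the linked and marker lists, 3 were higher in interstitial and 5 lower, close to the shares over all genes (2.05% and 3.74%). The higher were Pecam1 of endothelium (2.55 ± 0.66, edgeR adjusted p = 0.0449), Hdc, the histamine-forming enzyme of mast cells (3.13 ± 0.76, 0.0331), and Cd209a, a lectin of dendritic cells (2.49 ± 0.62, 0.0442). Cd209a belongs to a family of close copies, so its reads may be split unevenly. The lower were Cspg4 (-2.37 ± 0.55), Pdpn (-1.92 ± 0.48), Cx3cr1, which set the gate, Cd68 (-0.82 ± 0.15) and Fcgr1 (-1.04 ± 0.24). The calls of Pecam1, Hdc, Cd209a, Cspg4 and Pdpn were each lost in 7 of 9 fits that left out 1 library (highest adjusted p = 0.169), and that of Fcgr1 in 4. The value of Pecam1 was 1.69 without interstitial F.

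**Figure D4:**
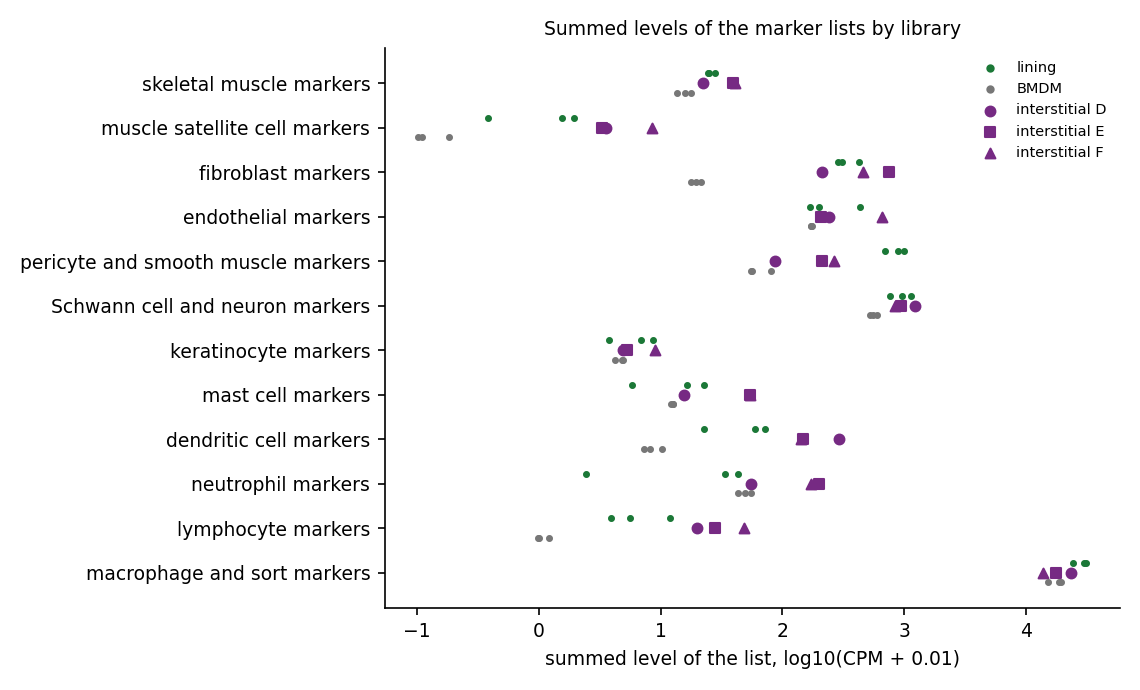
Summed level of each marker list in the 9 libraries, as log10(CPM + 0.01) on the x axis, with 1 row per list. Small points are lining and BMDM libraries, and larger symbols are interstitial D, E and F. Satellite cell, dendritic cell and lymphocyte sums are higher in all 3 interstitial libraries than in any other, though no satellite cell gene passed the filter. The dendritic cell sum is highest in D at 293 CPM, mostly through Cd209a and Siglech.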

How the data were processed

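RNA of 9 mouse samples in 3 groups of 3 was sequenced with a stranded mRNA kit and single reads of 101 bases, per the labels' protocols. The authors deposited unnormalised read counts per gene: reads on exons of Ensembl genes (GRCm38, release 91) were counted by featureCounts 1.6.1 with the reverse strand setting, per the file headers. Per the submitters' processing notes, cutadapt 1.15 and STAR 2.5.4a were also used. Of 53465 genes, 53274 matched a symbol. 

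The analysis used edgeR 4.0.16 under R 4.3.3 on these counts: filterByExpr (minimum count 10, minimum total 15, 12610 genes kept), TMM scaling, a robust quasi-likelihood fit of 1 mean per group to all 9 libraries, 2-sided tests and Benjamini-Hochberg adjustment over all genes tested, called under 0.05. The procedure was tested on simulated data. SE is the log2 difference over the square root of F. Coordinates are the table's outermost exon ends, and gene structures are from GENCODE M21 of the same build.

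Lbx1 and Barx2, the gene lists, the comparisons and the rule for named genes were chosen with earlier results of these data known. The rule took the 2 genes and their relatives, called homeobox genes, the 3 most abundant, the 5 genes most like each, neighbours within 250 kb, and called members of the other lists. Lists are described by counts, with no set test. Alternatives were DESeq2 1.42.0, another normalization (RLE), no filter, the 6 sorted libraries alone, and leaving out each library.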

Additional observations from a re-analysis of the deposited data

How the results depend on the processing

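The mean interstitial level ranged from 9.39 to 16.9 CPM for Lbx1 and from 17.1 to 31.8 CPM for Barx2 when 1 interstitial library was left out. With RLE scaling the means were 14.3 and 26.1 CPM. The coefficient of variation ranged from 13.4% to 66.3% for Lbx1 and from 27.6% to 73.1% for Barx2 when 1 interstitial library was left out. Counts of calls depended on the test and the libraries, and the cause was not tested. In interstitial against lining, 259 genes were higher and 471 lower, against 589 and 709 with DESeq2, 111 and 255 with the 6 sorted libraries alone, and 120 to 371 and 276 to 517 when 1 library was left out. Homeobox genes other than the 2 had 0 higher (0 to 1 with 1 library left out) and 1 lower (2 with DESeq2, 0 with the 6 sorted libraries, 0 to 4 with 1 left out). Against BMDM, 14 were higher (25 with no filter) and 5 lower (2 to 7 with 1 left out). The linked and marker lists had 3 higher (14 with DESeq2, 0 with the 6 sorted libraries, 0 to 9 with 1 left out) and 5 lower (3 with no filter, 2 with the 6 sorted libraries, 2 to 7 with 1 left out). No paired analysis was possible because the labels name the samples A to I and share no number between groups. Depth limits the statements on lining most, where 3 counts are 1.46 CPM in A and 1.13 CPM in C.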

Other observations

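Some homeobox genes were read in a single sorted library. With a minimum of 5 counts there and 0 in the 5 other sorted libraries, 4 such genes were found in interstitial E, 3 in interstitial F, 1 in lining B and none in lining A or C or interstitial D. These are 12.7% of the 63 homeobox genes with that minimum in a sorted library, beside 6.78% (1053 of 15530) over all genes, and the difference was not tested. Over all genes 415 lay in E, 319 in B and 155 in F. Those of E were Dlx3 (17 counts), Hoxa11 (10), Hoxa13 (7) and Dlx5 (6). Those of F were Pax7 (8 counts), Zfhx4 (7) and Msx1 (5), and that of B was Six4 (6). None of these 8 genes had a count in BMDM. Hoxd13, a gene of digit patterning, had 20 counts in E, 4 in F and 0 in every other library. E and B are the deepest sorted libraries, and the part of depth was not tested.

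Msx3, a homeobox gene known from the dorsal neural tube, had 34 counts in lining C, 119 in interstitial F, 5 in lining B, 2 in BMDM G and 0 in the others. It crossed the sort instead of following it and did not pass the filter on low counts. Flt1, a receptor for vascular endothelial growth factor, was also high in these libraries, at 306 CPM in C and 408 CPM in F against 0.887 to 14.6 CPM in the other sorted libraries. Barx2 was highest in F and had 0 counts in C, where 3 counts are 1.13 CPM. Since Barx2 was chosen for few reads outside interstitial, its value in C says nothing of a link to Msx3 or Flt1, which was not tested. Hopx, a homeodomain-only gene, had mean levels of 68.5 ± 10.9 CPM for lining, 46.03 ± 23.5 CPM for interstitial and 1.47 ± 0.184 CPM for BMDM libraries, and was higher in interstitial than in BMDM by 4.97 ± 0.37 on the log2 scale (n = 3 per group, edgeR adjusted p = 6.52e-07). All genes of these paragraphs were picked after their values were seen.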
